A study of Mus musculus with 32 samples.

Results

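Enzymes that conjugate drugs, hormones and reactive metabolites, or that hydrolyse esters and oxidise or reduce carbonyl groups, were followed in mice lacking ketohexokinase (Khk), the enzyme that phosphorylates fructose. Members were all protein-coding genes whose symbols begin with Ugt1, Ugt2, Sult, Gst (classes a, k, m, o, p, t and z), Mgst, Akr, Aldh or Ces, each followed by its number, with Akr1b3 left out. The rule reads gene names and no measured value, but it was chosen with earlier results of these data known. A gene also had to be listed in a table, and the tables list genes by the authors' p. This rule found 67 members among the 10055 genes listed in at least 1 of 4 organ tables. Among all protein-coding genes of the GENCODE M21 annotation, 121 genes follow it. Liver had 46 members among its 6375 listed genes, duodenum had 24 among 1567, jejunum 13 among 2413 and ileum 28 among 5187. Of the members, 39 were listed in 1 table only, 13 in 2, 14 in 3, and Mgst1 in all 4. Liver and ileum shared 20 members, which were 43.5% of those in liver and 71.4% of those in ileum.

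The study sequenced polyadenylated RNA from the liver and 3 intestinal segments (duodenum, jejunum, ileum) of male wild-type (WT) mice and of male mice deficient in Khk (Khk KO), to study fructose, Khk and iron balance. Each of the 8 groups had 4 libraries, 32 in all. The labels give no age, strain, diet, allele or reach of the deletion, nor whether the organs came from the same animals. Nothing in the labels says that the libraries of a group are separate animals, so p-values measure the spread between these libraries. Mean Khk in Khk KO liver was 11.1% of WT. Among the segments it was 4.59% for duodenum, 9.25% for jejunum and 6.65% for ileum, without overlap in any organ. In bulk tissue, fewer cells of a type and less RNA per cell cannot be told apart.

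Glutathione transferases (GST and the membrane-bound MGST) join glutathione to electrophiles, UDP-glucuronosyltransferases (UGT) add glucuronic acid, and sulfotransferases (SULT) add sulfate, which makes their substrates easier to excrete. Carboxylesterases (CES) split esters of drugs and lipids, aldo-keto reductases (AKR) reduce aldehydes and ketones, and aldehyde dehydrogenases (ALDH) oxidise aldehydes to acids. Liver and the proximal intestine carry most of this capacity. Many of the genes are known targets of the transcription factors NRF2, which acts at the antioxidant response element, and AHR, and some respond to the clock-controlled PAR bZIP factors DBP, TEF and HLF.

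Promoter sequences are shown because these factors have defined core motifs and several members lie in gene clusters. RefSeq promoters (build GRCm38.p6, 250 bases before and 50 after the gene start) were found for 59 of the 67 members, 71 promoters in all. The PAR bZIP site TTANGTAA, searched on both strands, was present in 9 of the 71 member promoters (12.7%), from 8 members, and in 2.32% of all 32851 promoters. Of these 8 members, 5 were Ces1 genes: Ces1a, Ces1b, Ces1c, Ces1e and Ces1g. Promoter windows of 60 bases are given on the strand of the gene, with the motif in capitals, for Ces1c at chr8:93131338-93131397, for Ces1e at chr8:93229661-93229720 and for Ces1g at chr8:93337400-93337459, all on the minus strand.
Ces1c: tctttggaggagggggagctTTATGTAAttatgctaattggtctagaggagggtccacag
Ces1e: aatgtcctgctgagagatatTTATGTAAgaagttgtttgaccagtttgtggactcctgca
Ces1g: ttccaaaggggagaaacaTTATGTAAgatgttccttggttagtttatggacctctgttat
These promoters come from 1 gene cluster. The window of Ces1b matched that of Ces1c at 53 of 60 bases in the best ungapped shift of up to 3 bases.

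The antioxidant response element core TGACNNNGC, with its other-strand form GCNNNGTCA, was found in 5 member promoters (7.04%), those of Aldh9a1, Gsta3, Gstm5, Gstm7 and Mgst1, against 12.4% of all promoters. It is shown for Gsta3 at chr1:21240444-21240503 and for Mgst1 at chr6:138140451-138140510, both on the plus strand, because Gsta3 had the authors' call in duodenum and Mgst1 was the member listed in every organ.
Gsta3: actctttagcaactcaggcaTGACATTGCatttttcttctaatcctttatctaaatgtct
Mgst1: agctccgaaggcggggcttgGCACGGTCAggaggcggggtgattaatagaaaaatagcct
The xenobiotic response element core GCGTG, which AHR binds with its partner ARNT, was found in 17 member promoters (23.9%) and in 32.4% of all promoters. A match describes letters in the window and no more.

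Values are given as the authors' normalised counts, which are read counts divided by 1 size factor per library. Changes are log2 fold changes, Khk KO divided by WT, with their standard error (SE) from a refit of the deposited read counts with edgeR's quasi-likelihood test. A member is said to have fallen or risen where the Benjamini-Hochberg adjusted p of that test was under 0.05. Every table was limited to genes whose unadjusted p was under 0.05 in the authors' own test of the same contrast, so a listed member had already been chosen for a difference, and its count is read against the other genes of the table. Liver libraries held 7505439 to 14331517 reads of listed genes, and members took 3.34% to 4.58% of them. Duodenum libraries held 1722220 to 3549978 reads with 2.77% to 4.56% in members. For jejunum the figures were 3053896 to 4325568 reads and 1.53% to 1.92%, and for ileum 6531593 to 9149003 reads and 0.673% to 0.907%.

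Some libraries stood apart from their group across the members whose mean reached 50 normalised counts. In liver, WT replicate 1 was the lowest WT library for 37 of 42 members and WT replicate 3 the highest for 28. WT replicate 1 was the highest WT library for 17 of 21 members in duodenum and for 19 of 25 in ileum, and Khk KO replicate 1 was the lowest of its group for 16 in each of these organs. The number of members that changed in liver was 22 with all libraries. It was 42 without WT replicate 1, 6 without WT replicate 2, 20 without WT replicate 3, 10 without Khk KO replicate 3, 1 without Khk KO replicate 4, and 0 without WT replicate 4, Khk KO replicate 1 or Khk KO replicate 2. In ileum it was 12 with all libraries. It was 19 without WT replicate 1, 18 without WT replicate 4, 5 without WT replicate 3 or Khk KO replicate 3, 1 without WT replicate 2, and 0 without Khk KO replicate 1, 2 or 4. The share of all genes tested is not given for these fits, so the counts are no result about the members. The adjustment ranks all fitted genes of an organ together. It counts 18225 genes in liver and 16034 in ileum, the numbers that the authors had adjusted over. In liver Akr1a1, Gstp1, Mgst3, Gsta4, Ugt1a2 and Mgst1 had the same largest adjusted p over these fits (edgeR, 0.068).

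In liver, 42 of the 46 listed members were lower in Khk KO and 4 were higher by the authors' log2 fold change, where 46.0% of all genes of the table were lower. The refit covered 44 members, of which 21 fell and 1, Ugt1a2 with few reads, was higher past the threshold. Of the genes tested 23.8% were lower and 22.8% higher past it. The median log2 fold change was -0.45 over the 44 members, -0.25 over the protein-coding genes and 0.33 over all genes tested. By the authors' deposited table, 29 members were lower and 2 higher at an adjusted p under 0.05, against 32.6% of the table's genes lower. In 26 members every Khk KO library was below every WT library, which held for 30.7% of the genes of the table. The map of members by library shows the 4 Khk KO libraries on the low side of the WT mean in nearly all enzymes of both organs.

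**Figure D1:**
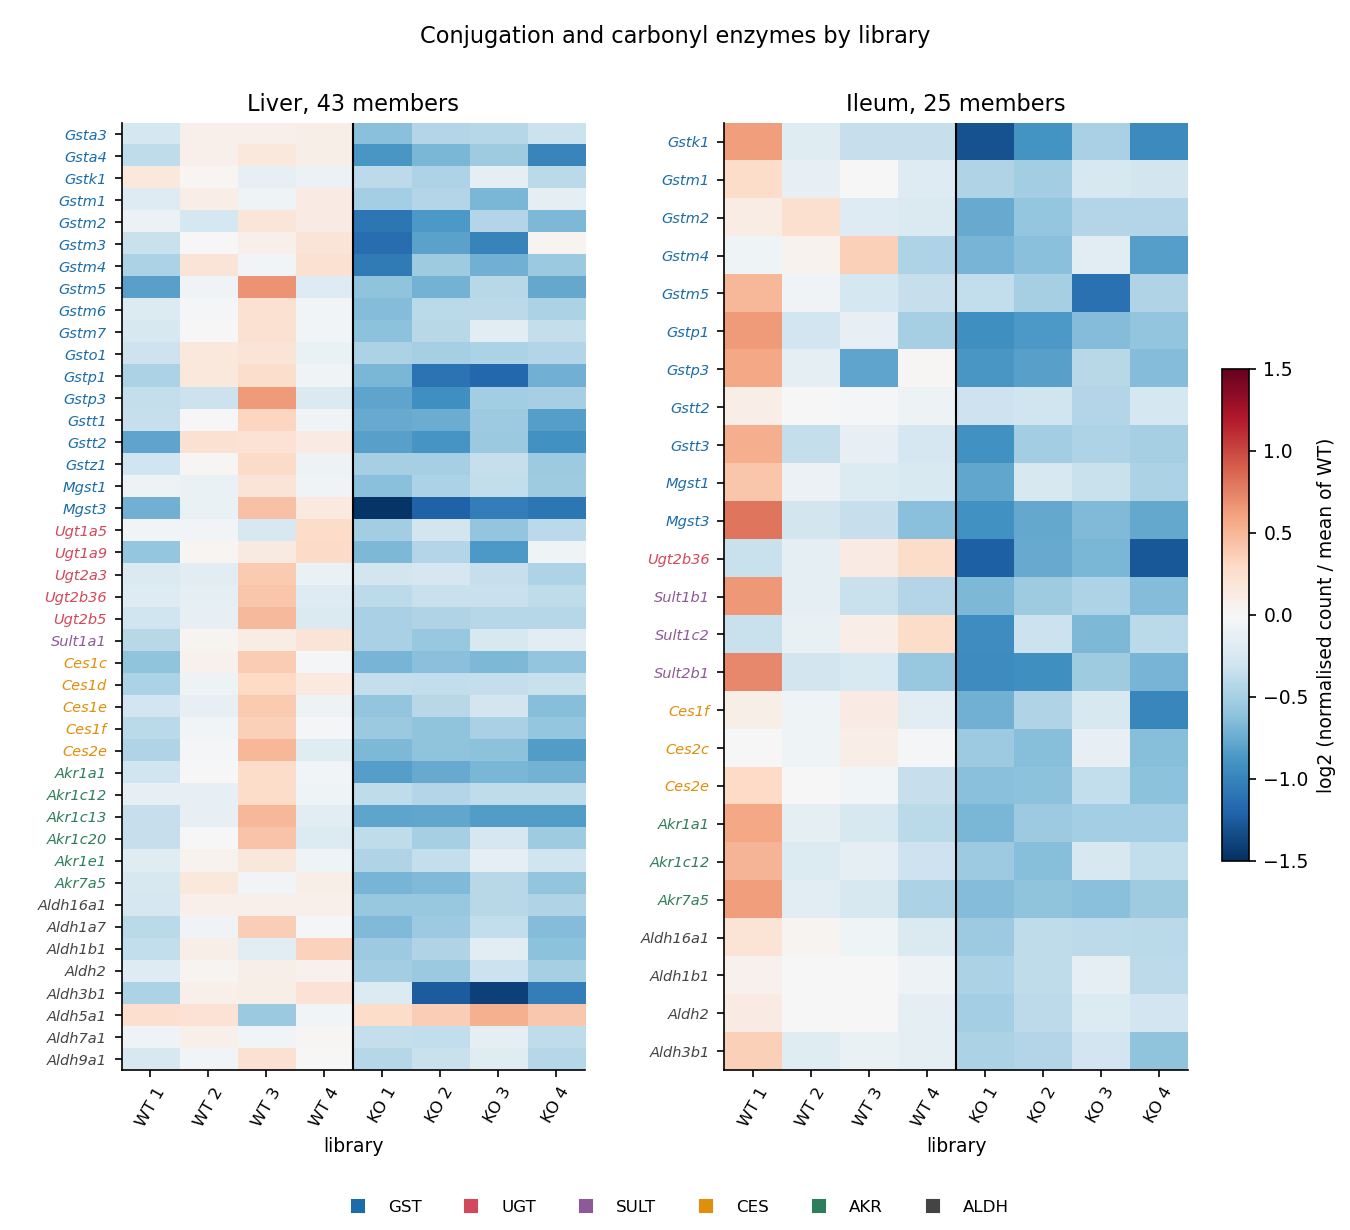
Normalised count of each member divided by its mean in the 4 WT libraries (colour, log2 scale, blue lower and red higher), for members whose mean is at least 50 in either genotype, with libraries in columns (WT replicates 1 to 4, Khk KO replicates 1 to 4). Gene names are coloured by enzyme family. In ileum, WT replicate 1 is the highest WT library for most members, and in liver WT replicate 1 is the lowest.

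Gene length went with these changes. Among protein-coding genes with a deposited length under 1500 bases, 97.9% were lower in liver Khk KO, and all 10 members of that length were lower. Between 1500 and 2500 bases the shares were 95.4% of protein-coding genes and 21 of 22 members (95.5%), and between 2500 and 4000 bases 82.6% and 5 of 5. At 4000 bases or more, 18.6% of protein-coding genes were lower, with a median log2 fold change of 0.67. Of the members of that deposited length 6 of 7 were lower, with a median of -0.44. This class depends on the length used, as the principal transcripts of Gsta3, Gstz1, Aldh7a1 and Gstt2 have 1457, 1656, 1914 and 2254 bases. With the trend of principal transcript length taken out, as described below, these 4 genes were at 0.13, 0.08, 0.13 and -0.45. The median deposited length was 2062 bases for the listed members and 4590 bases for the listed protein-coding genes. RNA quality values were not used here, and the part of the length trend in the members' differences was not tested beyond the fits that follow.

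**Figure D2:**
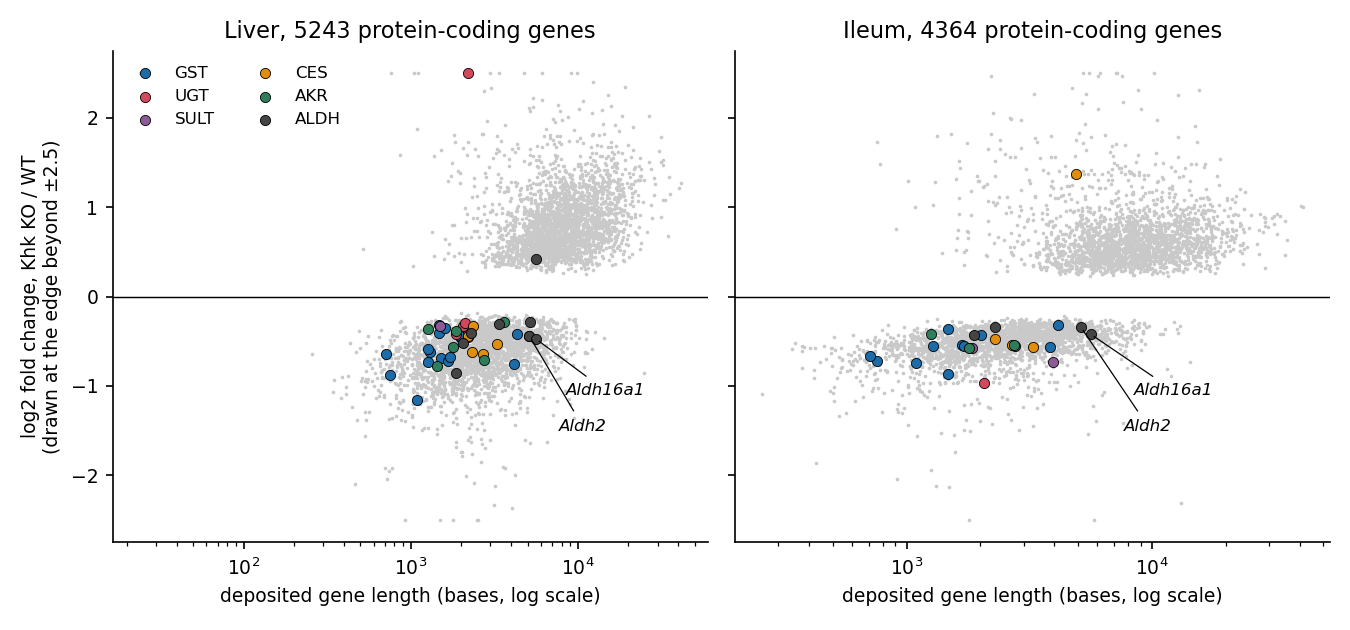
Log2 ratio of Khk KO to WT in the edgeR refit (vertical axis) against the deposited gene length in bases (horizontal axis, log scale), for listed protein-coding genes (grey) and members (coloured by family) in liver and ileum. Short genes lie below 0 in both organs, with 97.9% lower in liver under 1500 bases, and the members lie among them; Aldh2 and Aldh16a1 lie below 0 among long genes that are mostly above it.

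The fit was repeated with the trend of each library with gene length taken out, using the deposited length, the length of the principal transcript or that of the shortest transcript with a CCDS (agreed coding sequence) tag. With the deposited length, 5 members fell in liver (6.80% of the genes tested fell): Aldh2, Aldh16a1, Gsta3, Gstz1 and Aldh7a1. The median over the members was then 0.04. With the principal transcript, Aldh2 and Aldh16a1 fell (5.27% of the genes tested), and with the shortest CCDS transcript Aldh16a1 and Akr1e1 (5.88%). Thus of the 21 members that fell, 1 did so under all 3 length fits, and it was Aldh16a1. With the trend of GC content taken out in place of length, 23 members fell in liver (24.5% of the genes tested), 16 of them among the 21, but not Aldh16a1. No member was lower past the threshold in the reported fit and in all 4 of these fits.

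The glutathione transferases made up the largest family in liver, with 18 of 18 listed members lower and 12 fallen, where 23.8% of the genes tested fell. Their median deposited length was 1564 bases. With the deposited length trend taken out, 9 of the 18 were above 0 and 9 below, with a median log2 fold change of -0.0082. Gstp1, the pi-class enzyme, had the highest level per length of all members in WT liver, at 4293 ± 956 FPKM (SD, n = 4). Its normalised counts were 27104, 42191, 45117 and 36384 in WT and 23384, 17520, 16677 and 22807 in Khk KO. All 4 Khk KO libraries lay below the WT range, and Gstp1 fell with a log2 fold change of -0.88 (SE 0.17, edgeR adjusted p = 0.018). Mgst3, a membrane-bound enzyme with glutathione peroxidase activity, had the most negative log2 fold change of all members in liver. Its counts were 206, 316, 460 and 375 in WT and 123, 147, 165 and 160 in Khk KO, without overlap, and it fell by 1.16 on the log2 scale (SE 0.23, edgeR adjusted p = 0.019).

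Mgst1, the microsomal transferase and peroxidase of the liver, ranked second among members in level, at 2153 ± 232 FPKM in WT. It was at 47886, 47136, 57683 and 48740 normalised counts in WT and 32690, 36128, 39114 and 34935 in Khk KO. The groups did not overlap, and it fell by 0.47 (SE 0.10, edgeR adjusted p = 0.020). With the length trend taken out its log2 fold change was 0.08, so the direction turned. Gsta4, which conjugates the lipid aldehyde 4-hydroxynonenal, fell from 1656 ± 259 to 978 ± 138 normalised counts (log2 fold change -0.73), and the theta-class Gstt1 from 4140 ± 792 to 2524 ± 224 (-0.68).

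All 7 members of the mu-class cluster on chromosome 3 (107895821 to 108044894, GRCm38), Gstm1 to Gstm7, were lower in liver, with log2 fold changes from -0.72 to -0.35. Gstm2, Gstm4 and Gstm6 fell. With the deposited length trend taken out, the 7 log2 fold changes ran from -0.12 to 0.26. Gstm1, the mu enzyme with the highest level in liver (2014 ± 219 FPKM in WT), missed the threshold with 34467 ± 3473 normalised counts in WT and 25525 ± 4032 in Khk KO (log2 fold change -0.41, SE 0.13, edgeR adjusted p = 0.052). Mu-class genes, and likewise Gstp1, Gstp2 and Gstp3, are related neighbours whose identity was not measured here. Reads may have been split among them, so single members are uncertain. The remaining fallen transferases were Gstt2, Gsta3, the omega-class Gsto1 and Gstz1, the maleylacetoacetate isomerase of tyrosine breakdown, with log2 fold changes between -0.75 and -0.42.

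Of 8 listed aldehyde dehydrogenases 7 were lower in liver and 3 fell, among them the 2 long genes Aldh2 and Aldh16a1. Aldh2, the mitochondrial enzyme that clears acetaldehyde and other small aldehydes, was the most expressed of the family in liver, at 751 ± 75.0 FPKM in WT. Its normalised counts were 38939, 45855, 47355 and 46668 in WT and 31189, 30420, 35833 and 31655 in Khk KO. No Khk KO library reached the WT range, and the log2 fold change was -0.44 (SE 0.10, edgeR adjusted p = 0.021). It was -0.65 with the deposited length of 5126 bases and -0.80 with the principal transcript of 3867 bases, but -0.10 (adjusted p = 1.00) with the shortest CCDS transcript of 1799 bases. Which transcript the liver uses was not measured here.

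Aldh16a1 (ENSMUSG00000007833, chromosome 7, 45140684 to 45154584, minus strand, GRCm38) is an atypical family member whose substrate is not well known. Its normalised counts in liver were 1206, 1516, 1515 and 1510 in WT and 970, 967, 1075 and 1048 in Khk KO. The groups were separate, and the log2 fold change was -0.47 (SE 0.13, edgeR adjusted p = 0.033). It was -0.81, -0.72 and -0.89 under the 3 length fits, with adjusted p of 0.015, 0.0099 and 0.0097. With the GC trend taken out it was -0.26 (adjusted p = 0.21), and it passed the threshold in 2 of the 8 fits without 1 library, or in 5 of 8 with the deposited length trend taken out. The deposited length is 5622 bases, the principal transcript has 3537, and a coding transcript of 2685 bases without a CCDS tag is also annotated. Exons of Pih1d1 on the other strand cover 2.65% of its exon bases, and whether counting used strand is not given in the sources used here.

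Aldh1a7, a cytosolic relative of the retinal dehydrogenases, fell from 4620 ± 1020 to 3153 ± 308 normalised counts, with 1 Khk KO library above the lowest WT library. Aldh7a1, which acts in lysine and choline breakdown, was at 10746 ± 458 in WT and 8678 ± 710 in Khk KO, with no overlap and a log2 fold change of -0.28 (edgeR adjusted p = 0.086). Aldh5a1, the succinic semialdehyde dehydrogenase, was the only listed ALDH that was higher, at 843 ± 199 in WT and 1110 ± 81.2 in Khk KO (0.42, adjusted p = 0.16). It overlaps an antisense transcript over 14.1% of its exon bases.

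Among the esterases in liver, Ces1c, Ces1f and Ces2e fell, and all 5 that could be fitted were lower. With the deposited length trend taken out, 3 of the 5 were below 0 and 2 above. Ces1c, which is secreted as the main plasma carboxylesterase of mice, had 2078 ± 573 FPKM in WT, next to Gstp1 and Mgst1. Its normalised counts were 36964, 58733, 72868 and 55321 in WT and lay between 34491 and 37122 in Khk KO. The lowest WT library lay within the Khk KO range, and the log2 fold change was -0.62 (SE 0.16, edgeR adjusted p = 0.032). Ces1f fell by 0.53 and Ces2e by 0.65. Ces1d, a triglyceride hydrolase, was at 22383 ± 4960 in WT and 17494 ± 149 in Khk KO (-0.33, adjusted p = 0.15), and Ces1e was at -0.45 (adjusted p = 0.078). Ces1a and Ces2h were listed as higher, but with 35 and 40 reads over 8 libraries they were too low to be fitted.

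Akr1a1, the aldehyde reductase that also serves vitamin C synthesis in mice, had 7304, 9003, 10836 and 8744 normalised counts in WT liver and 5072, 5297, 5569 and 5509 in Khk KO. The 2 ranges were apart, and it fell by 0.71 (SE 0.12, edgeR adjusted p = 0.017), the smallest adjusted p among the members in liver. Akr1c13, a hydroxysteroid dehydrogenase, fell by 0.78, and Akr7a5, which reduces aflatoxin dialdehyde and succinic semialdehyde, by 0.56. Akr1c12, Akr1c20 and Akr1e1 did not pass the threshold, with log2 fold changes of -0.37, -0.38 and -0.28. Neighbouring Akr1c genes are related, so single members are uncertain.

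Of 6 listed glucuronosyltransferases in liver, 5 were lower and edgeR called 0 of these. At an unadjusted p under 0.05 it had 4 of the 6 (92.9% of the genes tested), DESeq2 called 1 (69.2%), and 2 had the call in the authors' deposited table. With the GC trend taken out 4 of the 5 fell (24.5% of the genes tested). With the deposited length trend taken out all 6 had log2 fold changes above 0, with a median of 0.21. Ugt2b5 had the highest level of the family (1175 ± 331 FPKM in WT), with counts of 20673, 23302, 35471 and 21881 in WT and 18062, 18485, 18876 and 18863 in Khk KO. The ranges did not overlap, but the log2 fold change of -0.42 (SE 0.15) missed the threshold (edgeR adjusted p = 0.087). Ugt2b36, Ugt2a3, Ugt1a9 and Ugt1a5 had log2 fold changes from -0.45 to -0.30 and also missed it. Ugt1a2 had 5.47, 1.08, 0 and 0.949 normalised counts in WT and 20.1, 24.1, 14.3 and 33.6 in Khk KO, without overlap, from 101 reads in all. It passed the filter on low counts only through the Khk KO libraries, so its call as higher (log2 fold change 3.69, SE 0.72, no bound) is given as a description. Exon bases shared with the other Ugt1a isoforms make up 59.3% of the gene. Sult1a1, the phenol sulfotransferase and the 1 listed SULT, was at 4517 ± 790 and 3522 ± 462 (-0.33, adjusted p = 0.17).

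**Figure D3:**
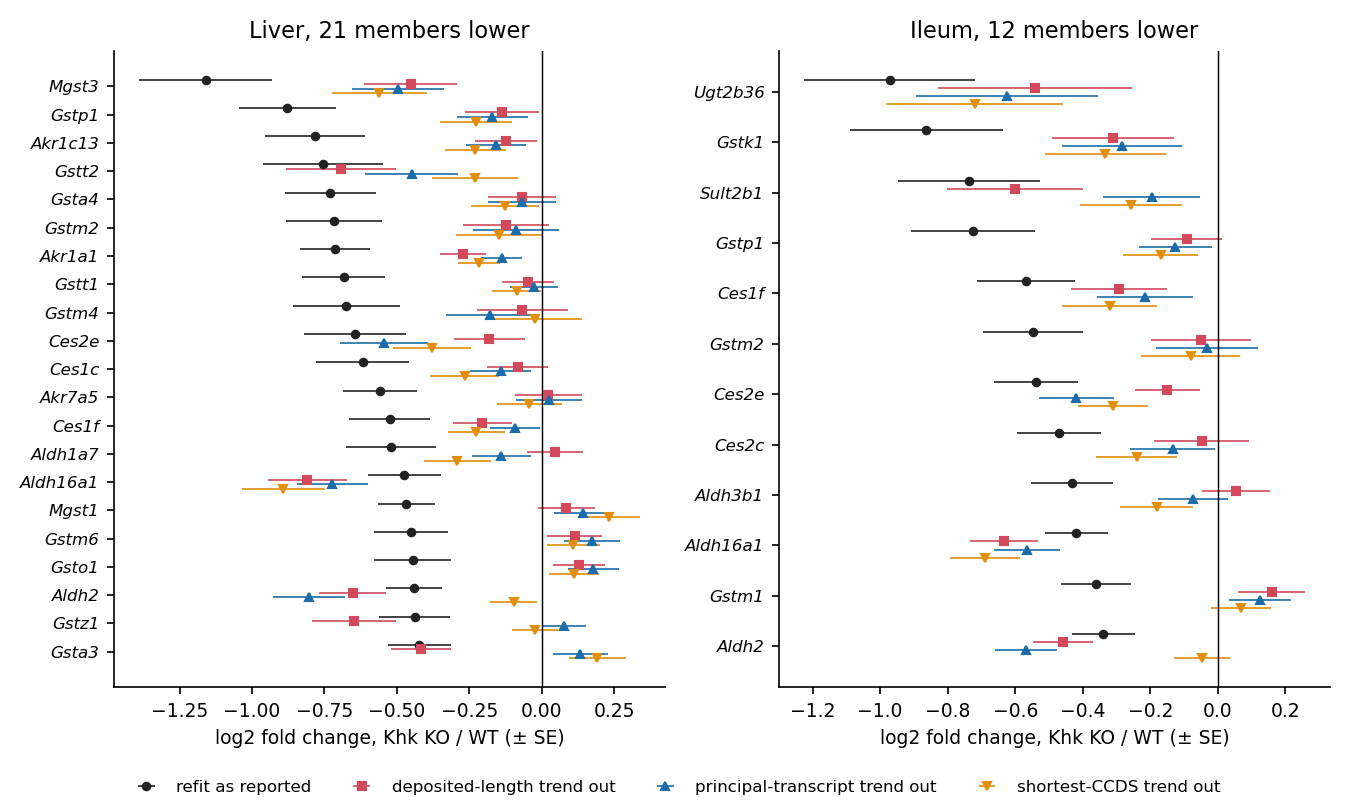
Log2 ratio of Khk KO to WT with its SE (bars) for the members that fell in liver and ileum, in the reported edgeR refit (black circles) and with the trend of the deposited length (red squares), the principal transcript (blue triangles) or the shortest CCDS transcript (orange triangles) taken out. Most members move towards 0 in the length fits, while Aldh16a1 lies further below 0 in all 3.

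In ileum, 25 of 28 listed members were lower in Khk KO, against 48.7% of the genes of the table. Of 26 members fitted, 12 fell and none rose, where 21.3% of the genes tested fell and 25.1% rose. The median log2 fold change was -0.55 over the members, -0.29 over the protein-coding genes and -0.27 over all genes tested. The authors' deposited table had 13 members lower at an adjusted p under 0.05, against 21.2% of its genes. No Khk KO library reached the WT range in 20 members, which was so for 29.9% of the genes of the table. Scaled by the size factors of the authors instead of TMM, 4 of the 26 members fell in ileum. Of the 4788 genes tested, 1585 were then called in either direction, 65.9% of them higher. With TMM 2221 were called, 54.1% of them higher. The length and GC fits of ileum used these size factors too, so their counts are to be read against 4. By deposited length, 7 of 7 members and 98.1% of protein-coding genes under 1500 bases were lower. At 4000 bases or more 3 of 4 members and 18.9% of protein-coding genes were lower.

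The fallen members of ileum were Gstk1, Gstp1, Gstm1, Gstm2, Sult2b1, Ugt2b36, Ces1f, Ces2c, Ces2e, Aldh2, Aldh3b1 and Aldh16a1. Gstk1, the kappa-class enzyme of mitochondria and peroxisomes, had 470, 269, 238 and 238 normalised counts in WT and 123, 163, 217 and 157 in Khk KO. All Khk KO libraries were below the WT range, and it fell by 0.86 (SE 0.23, edgeR adjusted p = 0.032). Gstp1 fell from 4586, 2429, 2714 and 2099 to 1565, 1623, 1883 and 1964 (log2 fold change -0.72, SE 0.18). In Gstp1, as in most members, WT replicate 1 lay above the other WT libraries.

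Ces2e, an esterase of the intestinal lining, was the second most expressed member in WT ileum at 254 ± 43.3 FPKM. Counts were 17692, 14438, 13942 and 11283 in WT and 9303, 9353, 11131 and 9378 in Khk KO, just without overlap, and it fell by 0.54 (SE 0.12, edgeR adjusted p = 0.021). Its neighbour Ces2c, 3112 ± 161 in WT and 2245 ± 413 in Khk KO, fell by 0.47. Sult2b1, which sulfates cholesterol and related sterols, was at 6625, 3329, 3455 and 2717 in WT and 2105, 2133, 2778 and 2478 in Khk KO. Here 1 Khk KO library lay above the lowest WT library, and the log2 fold change was -0.74 (SE 0.21, edgeR adjusted p = 0.042). Ugt2b36, low in ileum at 2.66 FPKM in WT against 589 in liver (tables normalised separately), fell from 114 ± 21.4 to 58.7 ± 12.3 normalised counts.

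Aldh16a1 in ileum had 2420, 2168, 2008 and 1811 normalised counts in WT and 1446, 1619, 1598 and 1582 in Khk KO. The groups were apart, and the log2 fold change was -0.42 (SE 0.09, edgeR adjusted p = 0.018). Under the 3 length fits it was -0.63, -0.57 and -0.69, and with the deposited length it passed the threshold in all 8 fits that left out 1 library each (-0.70 to -0.58, largest adjusted p = 0.037). With no trend taken out, it passed in 4 of the 8 fits without 1 library (largest edgeR adjusted p = 0.069). With the GC trend taken out it was near 0 (-0.0032, adjusted p = 1.00). Aldh2 in ileum fell from 4312 ± 324 to 3397 ± 311, by 0.34. It was -0.46 and -0.57 with the deposited and principal lengths, -0.05 with the shortest CCDS transcript, and 0.03 with the GC trend taken out.

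These 2 genes were the members that fell in ileum with the deposited length (5.10% of the genes tested fell) and with the principal transcript (3.63%), and Aldh16a1 was the only one with the shortest CCDS transcript (5.12%). Aldh1b1, a mitochondrial enzyme and the member with the highest level in WT ileum (275 ± 10.2 FPKM), had 13862, 13321, 13137 and 12538 counts in WT and 9474, 10176, 11924 and 10078 in Khk KO. It was separate between genotypes, but its log2 fold change of -0.34 (SE 0.10) missed the threshold in the edgeR refit (adjusted p = 0.052). Akr1a1 (-0.54, adjusted p = 0.053), Mgst3 (-0.74, adjusted p = 0.055), Akr7a5 (-0.58, adjusted p = 0.054) and Mgst1 (-0.43, adjusted p = 0.064) were likewise just outside it. Ugt2b1 had no read in WT and 16 in Khk KO, and Akr1c21 had 42 reads over the 8 libraries. Both were listed as higher and were too low to be fitted. Ces2f, an esterase at 11.3 ± 9.53 normalised counts in WT and 31.2 ± 8.66 in Khk KO, was also listed as higher (log2 fold change 1.38, SE 0.55, edgeR adjusted p = 0.12).

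All 20 members shared by the liver and ileum tables were lower in Khk KO in both organs. As both tables had selected them on the same contrast, that count is a description. The difference between the organs was tested as an interaction of organ and genotype over 2834 genes, of which 15 passed. Of the 20 members, 0 passed with edgeR or with DESeq2, and 1 had an unadjusted p under 0.05. That member was Ugt2b36, at -0.33 (SE 0.14) in liver and -0.97 (SE 0.25) in ileum, a difference of -0.61 (SE 0.26, edgeR adjusted p = 0.63). Gstk1 differed by -0.54 (SE 0.29) and Gstt2 by 0.46 (SE 0.25), both with adjusted p near 0.8 (0.788 and 0.797). For Aldh16a1 the difference was 0.07 (SE 0.19) and for Aldh2 0.13 (SE 0.19). Without liver WT replicate 1, 1 member, Gstt2, passed the interaction test.

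**Figure D4:**
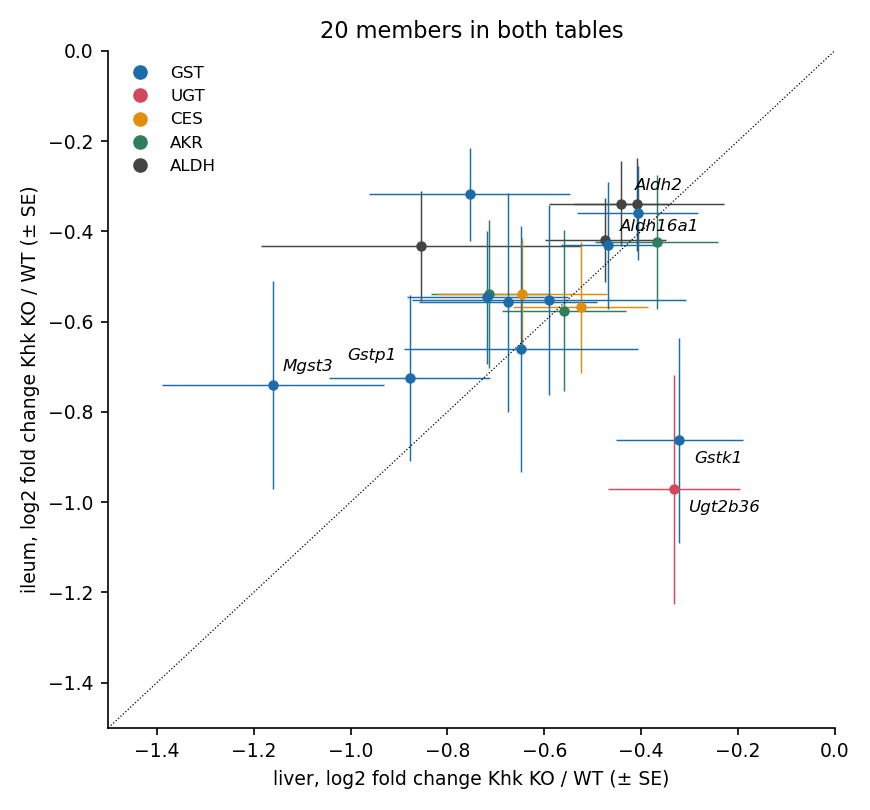
Log2 ratio of Khk KO to WT in ileum (vertical axis) against liver (horizontal axis) for the 20 members listed in both tables, with SE bars, coloured by family. The dotted line marks equal change, and all 20 points lie below 0 in both organs, where Ugt2b36 and Gstk1 lie below the line and Mgst3 above it.

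In duodenum, 22 of 24 listed members were lower, against 57.9% of the genes of the table. By the authors' deposited table, Akr1b8, Gsta3 and Ces1g were lower at an adjusted p under 0.05, where 0.957% of the table's genes were. The edgeR refit, which covered 21 members, called 0 of them and 0.0711% of the genes tested. At an unadjusted p under 0.05 it had 7 members and 49.6% of the genes tested, and DESeq2 called 1 member, Gsta3, and 2.36% of the genes. In 8 members every Khk KO value lay below every WT value, which held for 26.0% of the genes of the table. Scaled by the size factors of the authors, the median of all genes tested was lower by 0.15 on the log2 scale (-0.33 instead of -0.18), and the members' median was -0.59 instead of -0.41.

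Akr1b8, an aldose reductase relative that reduces lipid aldehydes and retinal, had 1802, 1236, 1178 and 2113 normalised counts in WT duodenum and 776, 962, 570 and 564 in Khk KO. Its ranges were separate, the authors' deposited table gave an adjusted p of 0.0029, and the refitted log2 fold change was -0.99 (SE 0.25, edgeR adjusted p = 0.96). Gsta3, an alpha-class transferase, had 1698, 1082, 1063 and 1255 in WT and 386, 719, 572 and 740 in Khk KO. It too was separate, with an adjusted p of 0.0033 in the authors' deposited table and a refitted log2 fold change of -0.92 (SE 0.20, edgeR adjusted p = 0.96). Ces1g, which acts on lipids in liver and intestine, had 1040, 1092, 1106 and 1292 in WT and 398, 600, 561 and 893 in Khk KO, and its refitted log2 fold change was -0.76 (SE 0.23). In the authors' deposited table its adjusted p was 0.028.

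Gsta2 was separate between genotypes as well, with 2209, 2010, 1233 and 1165 in WT and 381, 942, 1009 and 793 in Khk KO (-0.93, SE 0.29), but had no call by either test. Gsta1, the member with the highest level in WT duodenum at 1275 ± 459 FPKM, overlapped between genotypes, with 19104 to 38367 in WT and 9078 to 20905 in Khk KO. So did Gstm1 (27365 to 53785 and 16623 to 29116) and Gstp1 (7100 to 16706 and 5777 to 7945). Each of these 3 had its highest WT value in replicate 1 and its lowest Khk KO value in replicate 1. Gsta1, Gsta2 and Gsta3 are related alpha-class genes among which reads may have been split.

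**Figure D5:**
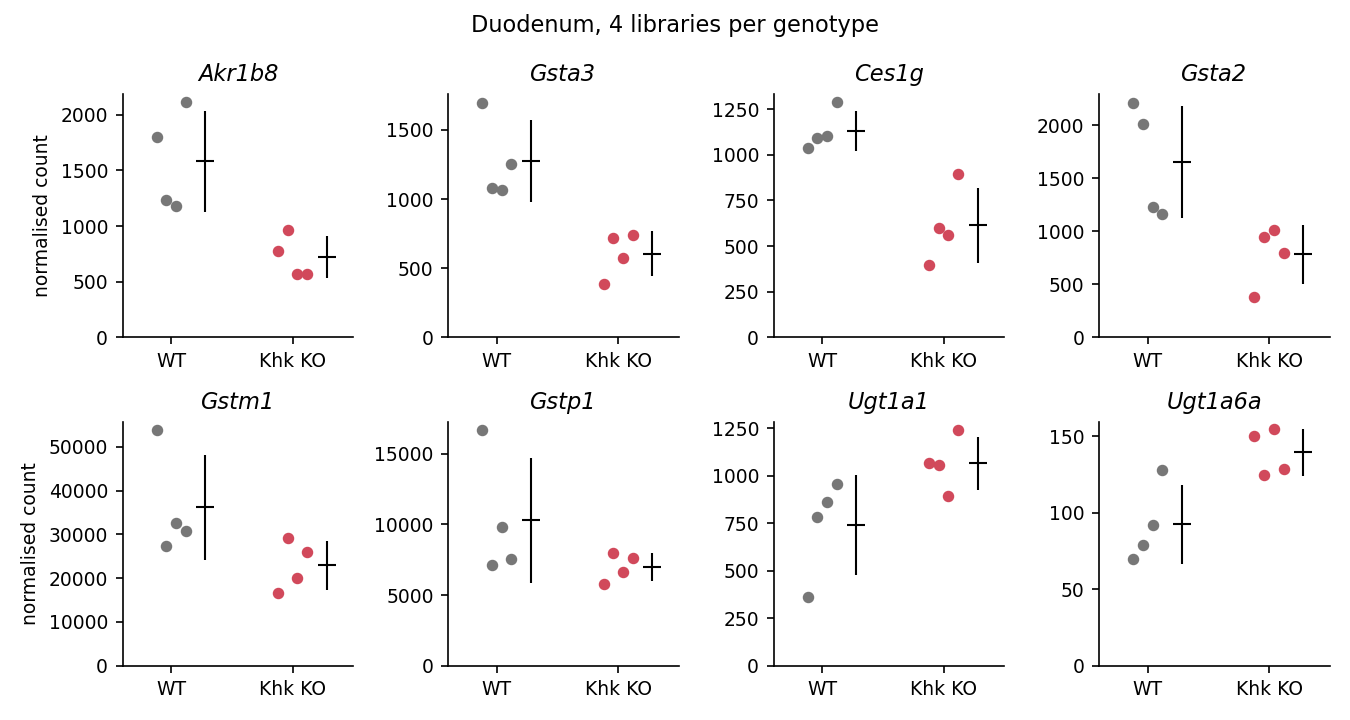
Normalised counts of 8 members in duodenum by genotype, with 1 point per library and the mean ± SD of 4 libraries beside them. Akr1b8, Gsta3, Ces1g and Gsta2 are separate between genotypes, Gstm1 and Gstp1 overlap with 1 high WT library, and Ugt1a1 and Ugt1a6a are the listed members with higher means in Khk KO.

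The 2 listed members with higher means in duodenum were glucuronosyltransferases. Ugt1a1, which conjugates bilirubin, had 360, 784, 862 and 956 in WT and 1068, 1059, 896 and 1240 in Khk KO, which overlap, with a log2 fold change of 0.63 (SE 0.32). Ugt1a6a, which conjugates planar phenols, was at 92.4 ± 25.6 and 139 ± 15.3 (0.71, SE 0.25). Neither passed a test, and reads of their shared last exons cannot be told apart.

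In jejunum, 10 of 13 listed members were lower, against 46.0% of the genes of the table, and no member had a call. The authors' deposited table called 0 members and 3.11% of its genes, edgeR called 0 of 12 members fitted and 0.0489% of the genes tested, and DESeq2 called 0 members and 14.4% of the genes. All 12 had an unadjusted p under 0.05 in the edgeR refit, as did 82.0% of the genes tested in this preselected table. Every Khk KO value lay below every WT value in 8 members, against 23.0% of the genes. Ces2e had the highest level of the members in WT jejunum, 644 ± 152 FPKM. Its counts were 38448, 28046, 27658 and 23446 in WT and 20658, 21785, 20893 and 22988 in Khk KO, just separate, with a log2 fold change of -0.44 (SE 0.13, edgeR adjusted p = 0.24).

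The theta-class genes Gstt2 and Gstt3 were also separate in jejunum, at -0.43 (SE 0.14) and -0.46 (SE 0.13), and so was Mgst3 at -0.48 (SE 0.18). Aldh1a1, which makes retinoic acid from retinal, was at 14176 ± 2798 in WT and 10717 ± 1055 in Khk KO and overlapped between genotypes. Members with higher means in jejunum were Akr1c14, a hydroxysteroid dehydrogenase (783 ± 129 and 1246 ± 413, log2 fold change 0.65), and the low Ugt1a6b and Ugt1a5. Ugt1a6b had 0, 3.30, 8.91 and 3.12 in WT and 11.99, 13.98, 16.6 and 23.7 in Khk KO, which did not overlap but came from 87 reads in all.

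Mgst1, listed in all 4 organs, was lower in each. Besides the values in liver, it was at 4161 ± 1262 in WT and 3022 ± 633 in Khk KO in duodenum, 2715 ± 147 and 2237 ± 153 in jejunum, and 2778 ± 630 and 2039 ± 313 in ileum. The genotypes overlapped in duodenum and not in the other 3 organs. The refitted log2 fold change for duodenum was -0.29 (SE 0.17), for jejunum -0.28 (SE 0.11) and for ileum -0.43 (SE 0.14), none past the threshold. With the deposited length trend taken out it was 0.15 for jejunum and 0.05 for ileum. Gsta3 and Mgst3, each listed in 3 organs, were lower in all 3 tables that listed them.

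Of 133 other genes of these pathways (cofactor supply, other conjugating and carbonyl enzymes, the transcription factors, NRF2 targets, clock and sex-biased genes), 52 were listed in liver, of which 11 rose and 20 fell, and 32 in ileum, of which 4 rose and 12 fell. Of all genes tested, 22.8% rose and 23.8% fell in liver, and 25.1% rose and 21.3% fell in ileum. With the length trend taken out, 5 rose and 3 fell in liver, and 2 rose and 2 fell in ileum. Then 396 of all 5734 genes tested rose and 390 fell in liver, and 232 of 4788 rose and 244 fell in ileum. Of the 24 listed in duodenum edgeR called 0, with 12 at an unadjusted p under 0.05 (49.6% of all genes tested), while DESeq2 called 2 (2.36%) and 2 had the call in the authors' deposited table. Of the 16 in jejunum edgeR called 0, with 11 at an unadjusted p under 0.05 (82.0% of all genes tested), DESeq2 called 3 (14.4%), and 1 had the call in the authors' deposited table. Among other conjugating and hydrolysing enzymes in liver, 8 of 13 listed fell and 0 rose, including Gnmt, the glycine methyltransferase (32447 to 17930 normalised counts, log2 fold change -0.83, SE 0.14). Among other carbonyl enzymes 6 of 12 fell and 2 rose: Hagh of the glyoxalase pathway fell by 0.73, while the oxidases Aox3 (0.74) and Xdh (0.64) rose, with deposited lengths of 7033 and 9175 bases. With the length trend taken out, Gnmt was at -0.15, Hagh at -0.13, Aox3 at 0.18 and Xdh at -0.11, none past the threshold.

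Cofactor genes were split in liver, with 3 of 9 higher and 3 lower past the threshold. Gclc, the catalytic subunit that limits glutathione synthesis, rose from 4199 to 6309 normalised counts (log2 fold change 0.61, SE 0.12, edgeR adjusted p = 0.019) and was at 0.78 with the length trend taken out. Me1, malic enzyme, which makes NADPH, fell by 0.67. Of the 5 NRF2 targets outside the members that were listed in liver, Gclc rose and Txn1 and Nqo1 fell. With the length trend taken out, Txn1 was at 0.255 and Nqo1 at -0.22, neither past the threshold. Nqo1 (148 and 78.8, log2 fold change -0.88), Txn1 and the following Papss2, Pgd, Gss, Adh7 and Adh5 were named after their values were seen. With the length trend taken out, the cofactor genes Gclc and Papss2 and the alcohol dehydrogenase Adh7 rose in liver, with Ahr and Per2, while Pgd, Gss and Adh5 fell.

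Ahr, the receptor that acts at the xenobiotic response element, rose in liver from 551 to 1330 (1.29, SE 0.21, edgeR adjusted p = 0.016), and its partner Arnt, also named after its value was seen, had a log2 fold change of 0.67 (adjusted p = 0.049). All 5 listed transcription factor genes were higher in liver, and these 2 passed. In ileum Ahr rose by 0.49 (SE 0.13, adjusted p = 0.030), and Cdx2, a regulator of intestinal identity, and Keap1, the inhibitor of NRF2, fell by 0.47 and 0.35. With the length trend taken out, Ahr was at 0.88 in liver and past the threshold, while Arnt was at 0.04 (adjusted p = 1.00). In ileum Ahr was then at 0.20 and Cdx2 at -0.02, neither past the threshold, and Keap1 was at -0.39 (edgeR adjusted p = 0.038).

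The list of PAR bZIP and clock genes had 6 listed genes in liver, of which Per2 (1.39), Per1 (0.96), Per3 (0.87) and Cry2 (0.73) rose. These 4 are clock repressors, not PAR bZIP factors. With the length trend taken out, Per2 was at 1.04 (edgeR adjusted p = 0.0020). Per1 (0.65), Per3 (0.10) and Cry2 (0.30) were then not past the threshold. The PAR bZIP genes Tef and Hlf, whose products can bind the motif of the Ces1 windows above, were at 0.50 (edgeR adjusted p = 0.051) and 0.52 (adjusted p = 0.081), and at -0.13 and 0.04 with the length trend taken out. Dbp was listed in jejunum alone, at 0.39 (adjusted p = 0.24). In ileum Clock (0.87) and Nr1d2 (0.88) rose. Clock, of 13727 bases, was at 0.20 (edgeR adjusted p = 0.90) and Nr1d2 at 0.71 (adjusted p = 0.0073) with the length trend taken out. Other named genes of ileum were the epoxide hydrolase Ephx2 (-0.89), Dcxr (-0.72), Cbr1 (-0.50), Esd (-0.53) and the NADPH source G6pdx (-0.45), which fell, and the lactonase Pon3 (0.45), which rose. Of all pathway genes of ileum, Nr1d2 and Pon3 rose and Keap1 and Adh5 fell with the length trend taken out.

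Markers of the labelled tissues moved beside the members, and their part in the results was not tested. Of all genes tested, 23.8% fell and 22.8% rose in liver, and 21.3% fell and 25.1% rose in ileum. In liver, 6 of 7 hepatocyte markers were listed and 4 fell, with a summed level of 413172 to 603031 normalised counts in WT and 354709 to 389001 in Khk KO. Of 9 periportal markers 5 were listed and 3 fell (74443 to 125307 in WT, 56383 to 67443 in Khk KO), while of 9 pericentral markers 5 were listed and 2 rose (53922 to 56785 and 52391 to 57604). Of 7 erythroid markers 5 were listed and all 5 fell (4584 to 10959 and 2967 to 3515), and of 6 endothelial markers 4 were listed, 2 rose and 1 fell (2262 to 3513 and 4023 to 4262). Of 6 adipocyte markers 3 were listed and 2 fell (216.7 to 912.7 and 92.1 to 170.2). Male-biased liver genes had 3 of 14 listed, of which 2 fell, and female-biased ones 2 of 14, with no edgeR call. Of 8 Kupffer cell and macrophage markers 3 were listed and 1 fell, Clec4f (2541 to 7596 and 2134 to 3326 for the list). With the length trend taken out, 0 hepatocyte markers fell and 1 rose, 1 erythroid marker fell, 1 pericentral marker rose, and 0 periportal, endothelial, macrophage or adipocyte markers were called.

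In ileum, 3 of 6 goblet cell markers were listed and 2 fell (116105 to 140826 in WT, 76131 to 109105 in Khk KO), 2 of 7 Paneth cell markers and 1 fell (127307 to 153561 and 88402 to 116321), and 2 of 6 distal enterocyte markers, with no call (15470 to 29128 and 11963 to 17916). Of 7 erythroid markers 3 were listed and 2 fell (376 to 738 and 177 to 363). Of the cholangiocyte list, Krt19, an epithelial keratin, fell by 0.73, Cftr rose by 0.59 and Epcam was at -0.33 (edgeR adjusted p = 0.15). Of the tuft and enteroendocrine list, Chga fell by 0.59, while Dclk1 was at 0.60 (edgeR adjusted p = 0.11). With the length trend taken out, 0 genes of either list were called. In ileum 1 goblet cell marker fell with the length trend taken out, and 0 Paneth cell or erythroid markers did. It was Muc2, of 7127 bases, at -0.77 there and at -0.38 in the reported fit (edgeR adjusted p = 0.15). Zg16 and Tff3, the goblet cell markers that fell in the reported fit, were at -0.12 and 0.04 with the length trend taken out, neither past the threshold. In jejunum 3 of 7 proximal enterocyte markers were listed, with no call (152933 to 346445 and 144247 to 166502). All 4 listed of 7 smooth muscle markers (9428 to 22433 and 7709 to 11341) and all 4 listed of 6 adipocyte markers (83.6 to 1627 and 67.4 to 269.8) had lower means there, with no call. Duodenum had 2 of 6 distal enterocyte markers, with no call (8494 to 14261 and 4894 to 8572), and none of the 7 proximal ones. As the tables list only genes past the authors' threshold, a marker that is not listed was not analysed here.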

How the data were processed

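The authors deposited 1 table per organ with read counts, a normalised signal (in its values, the count divided by 1 size factor per library), FPKM, the p-value and adjusted p of their test and its log2 fold change (Khk KO against WT), per the file headers. The submitters' processing notes name HISAT2 2.0.5 and GRCm38; counting, strand use and the test are not given in the sources used here, and the labels name directional and non-directional chemistry. Members and lists were chosen with earlier results of these data known.

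Counts of all listed genes were refitted per organ with edgeR 4.0.16 (TMM, filterByExpr, quasi-likelihood F test), adjusted over the 18225, 15615, 9881 and 16034 genes (liver, duodenum, jejunum, ileum) that the authors had adjusted over. Library totals were those implied by the counts, gene lengths and FPKM. The SE is the log2 fold change divided by the square root of F. Libraries of a group differed by more than counting noise (lowest chi-square per degree of freedom 11.55), which does not show that they came from separate animals. DESeq2 1.42.0, other scalings and filters, length and GC trends (lowess span 0.5 on library deviations, GENCODE M21), a replicate block and leaving out libraries were alternatives. The edgeR script was tested on simulated data.

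Named members were, in liver and ileum, up to 12 per direction with the largest change among those called with a mean of at least 100; in duodenum and jejunum, those the authors called and the 6 with the smallest p; members of 3 or more tables; the highest FPKM of each family; and up to 10 called pathway genes per organ. Others are given in ranges or after their values were seen: Aldh16a1 in liver, Aldh1a7, Aldh7a1, Aldh5a1, Akr1e1, Ugt1a2, Ces1d and further members outside this rule.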

Additional observations from a re-analysis of the deposited data

Results flagged for a closer look

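In every member of every table, each group of 4 libraries whose values differed was searched for 1 library whose gap to the nearest other, divided by the range of the group, was above Dixon's critical value at the 95% level. Of 221 groups 25 had one, where chance gives about 1 in 20, and members share libraries. In liver WT replicate 1 was lowest for Aldh16a1 (1206 normalised counts), Gstt2 (1061) and Gsta3 (23033), and highest for Ces1a (4.378). WT replicate 3 was highest for Mgst1 (57683), Akr1c12 (1873), Gstp3 (315.3), Ugt2b36 (18831) and Ugt2a3 (8982). Khk KO replicate 2 was lowest for Akr1c12 (1139), and Khk KO replicate 3 highest for Aldh7a1 (9739). In duodenum WT replicate 1 was highest for Akr7a5 (7805), Mgst1 (6044), Gstp2 (1251) and Akr1d1 (39.12), and for Akr1b7 WT replicate 2 (3927) and Khk KO replicate 3 (3051) were lowest. In jejunum WT replicate 3 was highest for Mgst1 (2934). In ileum WT replicate 1 was highest for Gstk1 (469.9), Aldh3b1 (767.0), Mgst3 (7361) and Akr1c12 (2035). Khk KO replicate 3 was highest for Ces2e (11131) and Ces2c (2857), and Khk KO replicate 1 lowest for Gstt3 (305.9).

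Ugt1a5 moved in opposite directions between organs without overlap of the genotypes, and this difference was not tested. Its mean normalised count in Khk KO was 294.4 in liver, below 400.3 in WT, and 0.5914 in duodenum, below 3.881, but 8.352 in jejunum, above 2.204. Duodenum and jejunum had 18 and 45 reads over 8 libraries, and 59.5% of its exon bases belong to other Ugt1a isoforms.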

How the results depend on the processing

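The number of members past the threshold in liver (22) was 37 when adjusted over the genes tested only, 6 with the length trend taken out, 3 with the principal transcript, 3 with the shortest CCDS transcript and 2 at an absolute log2 fold change of at least 1. It ranged from 0 to 42 when 1 library was left out, and from 0 to 11 with the length trend taken out (6 with all libraries). The other settings gave 20 to 31 in liver. In duodenum (0), DESeq2 gave 1, and 3 had the call in the authors' deposited table. In jejunum (0), adjusting over the genes tested only gave 10. In ileum (12), the count was 25 adjusted over the genes tested only, 4 with the authors' size factors, 19 without a filter, 21 with DESeq2, 2 with the length trend taken out, 2 with the principal transcript, 1 with the shortest CCDS transcript and 0 at an absolute log2 fold change of at least 1. Leaving out 1 library gave 0 to 19 in ileum, and 1 to 2 with the length trend taken out (2 with all libraries). The liver and ileum interaction (0) gave 0 to 1 when 1 library was left out. The length fits by transcript and the leave-one-out length fits were chosen after seeing the data. All length and GC fits used the authors' size factors, which alone gave 4 in ileum. For fits without 1 library the share of all genes past the threshold is not given. Nor is it given for the adjustment over the genes tested only, other filters, the limit on the log2 fold change or the replicate block. Counts of members under these settings are no result about the members. In ileum DESeq2 called 3520 of all 5187 listed genes, and the fit with the authors' size factors called 1585 of 4788 tested. The replicate block gave 20 for liver, 2 for ileum (Ces1f and Ces2c) and 0 for duodenum and jejunum, and the replicate block with the length trend taken out gave 6, 1, 0 and 0. Libraries share only a number: correlations of same-numbered libraries ran from -0.292 to 0.315 over the organs, and 1, 0, 2 and 0 of 4 correlated best with their own number (organs in the order liver, duodenum, jejunum, ileum). Of 1648 values of all fitted members under settings without a length term, 3 changed sign, and of 412 under length settings, 117. The log2 fold changes with the other sign were, with the length trend taken out, in liver Akr7a5 0.022, Mgst1 0.085, Gstm6 0.11, Gsto1 0.13, Aldh1a7 0.046, Gstm1 0.21, Akr1c12 0.29, Ces1e 0.098, Gstm3 0.032, Gstk1 0.28, Gstp3 0.11, Ugt1a5 0.097, Ugt2b5 0.18, Gstm7 0.26, Aldh1b1 0.10, Akr1c20 0.22, Ugt2b36 0.23, Sult1a1 0.30, Ugt1a9 0.099, Ces1d 0.19, Ugt2a3 0.25, Gstm5 0.11, in duodenum Akr1b7 0.074, Gstm5 0.061, in jejunum Aldh3b1 0.070, Mgst1 0.15, Mgst3 0.060, Aldh1a7 0.11, in ileum Aldh1b1 0.087, Aldh3b1 0.053, Gstm1 0.16, Mgst1 0.045, Gstm5 0.0040, Akr1c12 0.14. With the principal transcript they were in liver Akr7a5 0.026, Mgst1 0.14, Gstm6 0.17, Gsta3 0.13, Gsto1 0.18, Gstz1 0.075, Gstm1 0.18, Akr1c12 0.23, Aldh7a1 0.13, Gstk1 0.31, Gstp3 0.10, Ugt2b5 0.043, Gstm7 0.23, Akr1c20 0.22, Ugt2b36 0.11, Sult1a1 0.27, Aldh5a1 -0.27, Ces1d 0.080, Ugt2a3 0.056, Gstm5 0.12, in duodenum Akr1b7 0.031, Gstm5 0.065, in jejunum Mgst1 0.17, Mgst3 0.035, in ileum Gstm1 0.13, Mgst1 0.084, Gstm5 0.0061, Akr1c12 0.084. With the shortest CCDS transcript they were in liver Mgst1 0.23, Gstm6 0.11, Gsta3 0.19, Gsto1 0.11, Gstm1 0.11, Akr1c12 0.16, Aldh7a1 0.0064, Gstk1 0.26, Gstp3 0.047, Gstm7 0.15, Akr1c20 0.15, Sult1a1 0.18, Aldh5a1 -0.33, Gstm5 0.061, in duodenum Gstm5 0.034, Mgst1 0.0013, in jejunum Mgst1 0.18, Mgst3 0.0074, in ileum Gstt2 0.084, Gstm1 0.067, Mgst1 0.16, Akr1c12 0.023. With the replicate block and length trend they were in liver Akr7a5 0.030, Mgst1 0.089, Gstm6 0.11, Gsto1 0.13, Aldh1a7 0.045, Gstm1 0.21, Akr1c12 0.29, Ces1e 0.096, Gstk1 0.31, Gstp3 0.13, Ugt1a5 0.12, Ugt2b5 0.19, Gstm7 0.26, Aldh1b1 0.12, Akr1c20 0.22, Ugt2b36 0.24, Sult1a1 0.30, Ugt1a9 0.083, Ces1d 0.20, Ugt2a3 0.25, Gstm5 0.14, in duodenum Akr1b7 0.090, Gstm5 0.057, in jejunum Aldh3b1 0.091, Mgst1 0.17, Mgst3 0.061, Aldh9a1 0.0074, Aldh1a7 0.11, in ileum Aldh1b1 0.091, Aldh3b1 0.052, Gstm1 0.16, Mgst1 0.036, Akr1c12 0.13. After removal of the GC trend they were in ileum Aldh1b1 0.054, Aldh2 0.031, Aldh3b1 0.016. The cause of these changes was not tested. Members with few reads (Ugt1a2, Ces1a, Ces2h, Ugt1a6b, Akr1c21, Ugt2b1) are limited by depth, and listed genes only could be fitted.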
